A study of Mus musculus with 7 samples.

Results

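The retinal pigment epithelium is the single cell layer that lies behind the photoreceptors and forms the outer barrier between them and the choroidal blood supply. Described here are 8 genes of ion and metabolite transport in that layer, of the 54532 genes in the deposited count table: the channel genes Kcnj13 and Best1, the bicarbonate transporter gene Slc4a5, the monocarboxylate transporter genes Slc16a8 and Slc16a9, the haem and choline transporter gene Flvcr2, the thyroxine and retinol carrier gene Ttr and the sulfotransferase gene Sult1c1. Each was found by its symbol, and each symbol had 1 row. The genes were chosen with their difference between the treatments already known, so their differences are given as a description and carry no test. Of the 7 retina libraries, all from day 28, 4 came from mice given an infusion of Ang II, which is angiotensin II, a peptide hormone that raises blood pressure, and 3 from mice given saline. The series text gives the mice of both groups as ApoE-/-, whereas the sample labels give WT for both. The sources used here do not state dose, strain, age, sex or how many animals a library holds.

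The pigment epithelium moves potassium, chloride, bicarbonate, lactate and water out of the space around the photoreceptors and carries retinol and glucose towards them. Kcnj13 encodes the inward rectifier Kir7.1 of its photoreceptor-facing membrane. Best1 encodes bestrophin 1, a calcium-activated chloride channel of its blood-facing membrane, and Slc16a8 encodes MCT3, the lactate transporter of that same membrane. Ttr, Kcnj13 and Slc4a5 are also known from the choroid plexus, the epithelium that secretes cerebrospinal fluid.

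The start regions of the genes are shown as a description of their sequence. RefSeq's promoter table (GRCm38.p6) matched 7 of the 8 genes, all but Ttr, and its start site was that of the count table for Kcnj13, Best1 and Flvcr2. It lay 13 to 176 bases away for Slc16a8, Sult1c1 and Slc16a9, and 17547 bases away for Slc4a5. The motifs searched, on both strands of 300 bases (250 before the start and 50 after it), were CACGTG and CATGTG, E-box forms that MITF is known to bind, and TAATCC, a form that OTX2 is known to bind. The 3 motifs do not overlap in any region shown. MITF and OTX2 are transcription factors of pigment epithelium. At least 1 motif was in 5 of the 7 regions, and in 26.2% of 32851 regions of the same length. By motif, CACGTG was in 1 of 7 (7.15% of all regions), CATGTG in 2 of 7 (14.2%) and TAATCC in 2 of 7 (7.06%). Slc16a8 and Slc4a5 had none of these motifs in the window. Binding of MITF or OTX2 at the matches, and any part in the levels of the 8 genes, was not tested. The 250 bases before the start of the 5 genes with a match are printed 5′ to 3′ on the strand of the gene, with the match, or its reverse complement, in capitals.
Kcnj13 (chr1:87394730-87394979, minus strand): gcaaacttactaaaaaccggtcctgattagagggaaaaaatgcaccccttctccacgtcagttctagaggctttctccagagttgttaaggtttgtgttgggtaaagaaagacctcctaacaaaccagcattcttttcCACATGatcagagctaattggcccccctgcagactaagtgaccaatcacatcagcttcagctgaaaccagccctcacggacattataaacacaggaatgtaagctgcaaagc
Best1 (chr19:10001634-10001883, minus strand): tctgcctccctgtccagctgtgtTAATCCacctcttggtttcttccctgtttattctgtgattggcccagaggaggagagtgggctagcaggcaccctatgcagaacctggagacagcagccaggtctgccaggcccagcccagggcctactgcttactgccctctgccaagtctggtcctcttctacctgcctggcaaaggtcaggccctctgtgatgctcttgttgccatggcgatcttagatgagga
Slc16a9 (chr10:70245026-70245275, plus strand): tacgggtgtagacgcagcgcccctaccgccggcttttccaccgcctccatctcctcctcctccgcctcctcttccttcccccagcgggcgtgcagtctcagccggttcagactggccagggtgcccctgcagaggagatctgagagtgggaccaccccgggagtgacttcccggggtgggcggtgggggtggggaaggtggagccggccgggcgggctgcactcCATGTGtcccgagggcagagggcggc
Flvcr2 (chr12:85746289-85746538, plus strand): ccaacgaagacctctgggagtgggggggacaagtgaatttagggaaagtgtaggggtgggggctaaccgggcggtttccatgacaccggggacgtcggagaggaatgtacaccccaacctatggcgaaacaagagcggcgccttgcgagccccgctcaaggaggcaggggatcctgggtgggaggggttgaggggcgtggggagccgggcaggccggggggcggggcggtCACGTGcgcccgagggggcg
Sult1c1 (chr17:53990632-53990881, minus strand): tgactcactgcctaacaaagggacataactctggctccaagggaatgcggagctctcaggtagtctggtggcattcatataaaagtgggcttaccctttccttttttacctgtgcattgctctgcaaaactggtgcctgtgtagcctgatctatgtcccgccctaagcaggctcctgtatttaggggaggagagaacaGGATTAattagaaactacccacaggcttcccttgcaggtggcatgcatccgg
The match began 112 bases before the start in Kcnj13, 227 in Best1, 26 in Slc16a9, 20 in Flvcr2 and 52 in Sult1c1.

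Total counts per library were between 15374638 and 17563493 in Ang II and between 14655431 and 16679829 in saline. Rod markers had the highest sum of the marker lists in every library (47520 to 59480 CPM summed over 6 genes in Ang II and 59880 to 64480 CPM in saline). CPM is the read count scaled to the TMM-adjusted library size. Apoe had 253 to 406 counts in Ang II (15.5 to 25.7 CPM) and 150 to 304 in saline (10.5 to 18.8 CPM), so it was read in every library. The presence of reads does not settle which genotype is right. The first principal component of all tested genes, with 33.3% of the variance, set saline replicate 2 apart. With edgeR's quasi-likelihood test and Benjamini-Hochberg adjustment over all genes, 0 of 17078 tested genes (0.00%) were called at an adjusted p under 0.05, while 789 (4.62%) had an unadjusted p under 0.05. Nothing in the labels says that libraries came from separate animals, so p-values measure the spread between these libraries, which may be technical.

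All 8 transport genes lay higher in Ang II by their group means, with log2 fold changes, Ang II over saline, between 0.50 (Best1) and 2.25 (Sult1c1) and a median of 1.59, beside a median of 0.00 over all tested genes. A log2 fold change above 0 was found for 48.9% of all tested genes, and one above 1, as in 5 of the 8, for 1.76%. Sult1c1 and Kcnj13 differed most, followed by Flvcr2, Ttr and Slc16a8, and Slc4a5, Slc16a9 and Best1 differed least. The 3 saline libraries were not alike: saline replicate 3 was the highest saline library for all 8 genes, and came close to the Ang II libraries for several of them. All 8 passed the filter on low counts. edgeR called 0 of the 8, and 5 had an unadjusted p under 0.05 (2.90% of all tested genes did so in that direction). The groups did not overlap for 6 of the 8, beside 3.18% of all tested genes in that direction. Since the genes were chosen on this contrast, these counts support nothing. DESeq2 called 3 of the 8 (Kcnj13, Slc4a5 and Flvcr2; 0.182% of genes tested there), limma-voom 0, limma-voom with quality weights 5 (0.574%) and edgeR without a filter on low counts 4 (0.284%). Without saline replicate 3, edgeR called 7 (0.587% of genes tested there, in that direction).

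Of the channels, Kcnj13 (ENSMUSG00000079436, chromosome 1, 87386363 to 87394729, mm10) was at 4.59, 5.99, 3.48 and 3.80 CPM in Ang II replicates 1 to 4, against 0.619, 0.350 and 2.02 CPM in saline replicates 1 to 3. Every Ang II library was higher than every saline library, and saline replicate 3 was 4.16 times the mean of the other two. The mean was 4.47 ± 1.12 CPM (SD) over the 4 Ang II libraries and 0.996 ± 0.895 CPM over the 3 saline libraries, giving a log2 fold change of 2.14 ± 0.46 (SE). Counts were low, with 5 in saline replicate 2 (95% exact Poisson interval 1.62 to 11.7, counting error only). Of the exon bases of Kcnj13 in GENCODE M21, 623 are shared with Gigyf2 on the other strand, and the library protocol has no step that marks strand. Reads from those bases cannot be assigned to either gene by strand. Gigyf2 had 13683 counts in all libraries together, against 345 for Kcnj13. How the shared bases were counted is not given, so the level of Kcnj13 per length, and its ranks below, carry this limit.

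Best1 (ENSMUSG00000037418, chromosome 19, 9985174 to 10001633) was the lowest of the 8, at 1.42, 0.856, 0.759 and 0.664 CPM in Ang II, against 0.496, 0.350 and 1.10 CPM in saline. The groups overlapped: saline replicate 3 was above 3 of the 4 Ang II libraries. Its counts were 11 to 25 in Ang II and 5 to 18 in saline. The log2 fold change of 0.50 ± 0.50 (SE) was no larger than its error.

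Slc4a5 (ENSMUSG00000068323, chromosome 6, 83219828 to 83304945), which encodes the sodium bicarbonate cotransporter NBCe2, was at 80.4, 92.2, 94.6 and 69.2 CPM in Ang II, against 40.9, 31.6 and 58.9 CPM in saline. It had no overlap between the groups and the smallest distance of saline replicate 3 from the other saline libraries among the 8 genes, at 1.62 times their mean. The mean was 84.1 ± 11.7 CPM (SD) over the 4 Ang II libraries and 43.8 ± 13.9 CPM over the 3 saline libraries, giving a log2 fold change of 0.94 ± 0.20 (SE).

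**Figure D1:**
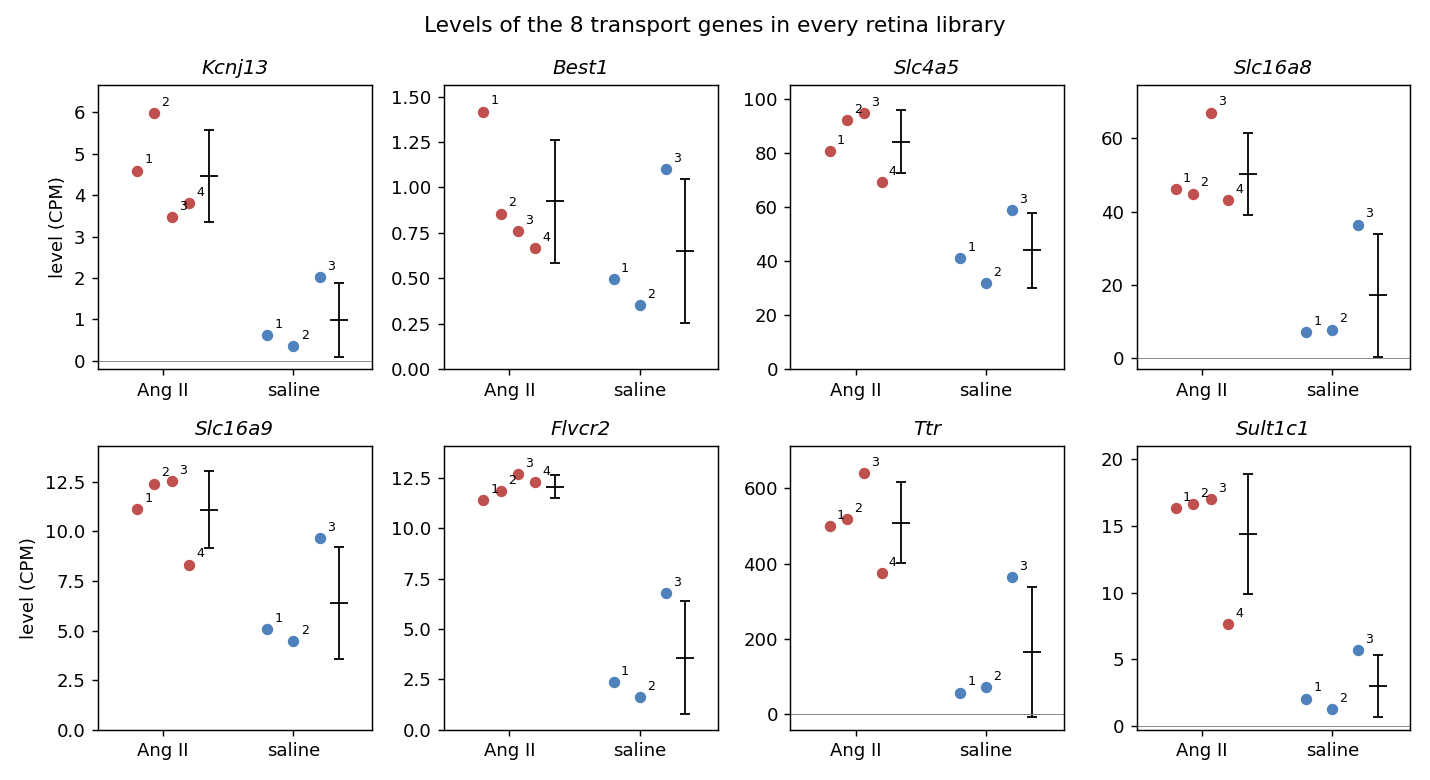
Level in CPM (vertical axes) of each of the 8 genes in each library, with Ang II left of saline; numbers beside the points are replicate numbers, and black bars are the mean ± SD (n = 4 Ang II, n = 3 saline). Saline replicate 3 is the highest saline library in all 8 panels, and for Ttr it lies at 364.3 CPM beside 375.5 CPM in the lowest Ang II library.

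Of the monocarboxylate transporters, Slc16a8 (ENSMUSG00000032988, chromosome 15, 79251014 to 79254761) was at 46.1, 44.9, 67.1 and 43.1 CPM in Ang II, against 7.06, 7.71 and 36.4 CPM in saline. The groups did not overlap, but saline replicate 3 was 4.93 times the mean of the other saline libraries and the lowest Ang II library just 1.18 times saline replicate 3. The mean was 50.3 ± 11.3 CPM (SD) over the 4 Ang II libraries and 17.1 ± 16.8 CPM over the 3 saline libraries, giving a log2 fold change of 1.55 ± 0.68 (SE).

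Slc16a9 (ENSMUSG00000037762, chromosome 10, 70245100 to 70285968) encodes MCT9, which is known in human cells for carnitine efflux. It was at 11.1, 12.4, 12.5 and 8.33 CPM in Ang II, against 5.08, 4.49 and 9.66 CPM in saline. The groups overlapped, since Ang II replicate 4 was below saline replicate 3, and the log2 fold change was 0.79 ± 0.25 (SE). Its exons share 419 bases with Gm9877 and 491 with Gm7097 on the other strand, but these had 2 and 0 counts in all libraries together.

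Flvcr2 (ENSMUSG00000034258, chromosome 12, 85746539 to 85813585), known in mouse as a choline transporter of brain vessels and first described for haem, was at 11.4, 11.9, 12.7 and 12.3 CPM in Ang II, against 2.35, 1.61 and 6.78 CPM in saline. The Ang II libraries were closer to each other than for any other of the 8 genes by SD over mean, at 12.07 ± 0.566 CPM (SD, n = 4), whereas saline was at 3.58 ± 2.80 CPM (SD, n = 3). The lowest Ang II library was 1.68 times saline replicate 3, and the log2 fold change was 1.74 ± 0.41 (SE).

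Ttr (ENSMUSG00000061808, chromosome 18, 20665250 to 20674324), which encodes transthyretin, was by far the most abundant of the 8. It was at 500.2, 518.4, 641.0 and 375.5 CPM in Ang II, against 56.4, 70.7 and 364.3 CPM in saline. Saline replicate 3 was 5.74 times the mean of the other saline libraries, and the lowest Ang II library was 1.03 times saline replicate 3. The mean was 508.8 ± 108.7 CPM (SD) over the 4 Ang II libraries and 163.8 ± 173.8 CPM over the 3 saline libraries, and the log2 fold change of 1.63 ± 0.77 (SE) had the largest error of the 8. Ttr made up 72.1% to 75.5% of the summed CPM of the 8 genes in Ang II, against 49.0%, 59.9% and 75.1% in saline replicates 1 to 3.

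Sult1c1 (ENSMUSG00000023943, chromosome 17, 53961615 to 53990674), a cytosolic sulfotransferase gene, was at 16.3, 16.6, 17.01 and 7.66 CPM in Ang II, against 2.04, 1.26 and 5.68 CPM in saline. Ang II replicate 4 stood apart from the other Ang II libraries but above every saline library. The mean was 14.4 ± 4.50 CPM (SD) over the 4 Ang II libraries and 2.997 ± 2.36 CPM over the 3 saline libraries, giving a log2 fold change of 2.25 ± 0.54 (SE).

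Set per length, as CPM per kilobase, the mean level in Ang II ran from Ttr (417 ± 89.2) through Slc16a8 (22.1 ± 4.95), Slc4a5 (14.5 ± 2.02), Sult1c1 (9.26 ± 2.89), Kcnj13 (3.52 ± 0.881), Flvcr2 (3.44 ± 0.162) and Slc16a9 (2.87 ± 0.504) to Best1 (0.429 ± 0.157; SD, n = 4 each). The Ang II ranges of Kcnj13 and Flvcr2 overlapped, as did those of Kcnj13 and Slc16a9. Slc16a9 was below Flvcr2 in all 4 Ang II libraries and above it in all 3 saline libraries. By mean, Kcnj13 held rank 5 of the 8 in Ang II and rank 7 in saline, where it was below Flvcr2 in all 3 libraries, and Slc16a9 held rank 7 in Ang II and rank 5 in saline. Slc16a8 (7.5 ± 7.37 CPM per kilobase; SD, n = 3) and Slc4a5 (7.55 ± 2.39) were nearly equal in saline, with overlapping ranges. Slc4a5 was below Slc16a8 in 5 of 7 libraries, all but saline replicates 1 and 2.

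The pattern over libraries was shared. The highest library was an Ang II library for all 8 genes, and Ang II replicate 3 for 6 of them. The lowest was saline replicate 2 for 6 genes and saline replicate 1 for the other two. Among the 28 pairs of the 8 genes, Pearson's r of log2 CPM over the 7 libraries was between 0.73 and 0.99 (median 0.94) and Spearman's rho between 0.36 and 1.0 (median 0.80). After the group means were taken off, which removes the contrast, r of the deviations was between 0.71 and 0.99 (median 0.86). The lowest values belonged to pairs with Best1, the gene with the fewest counts. These are descriptions over 7 libraries that share depth and scaling. The mean log2 CPM of the 8 was 4.34, 4.36, 4.38 and 3.93 in Ang II, against 2.21, 1.93 and 3.70 in saline. The deviations from the group means, and their r, therefore rest mostly on saline replicate 3 against the other saline libraries. Over 15499 other genes with a mean of at least 1 CPM, the median r with the mean log2 CPM of the 8 was -0.01, and 1.28% had r over 0.9.

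**Figure D2:**
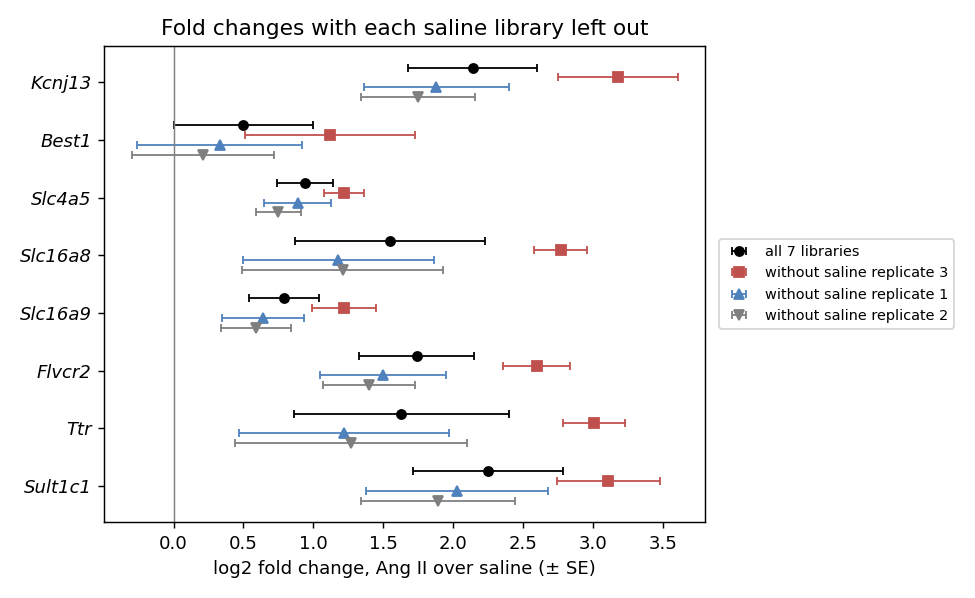
Log2 fold change, Ang II over saline, with its SE (horizontal bars) for each of the 8 genes (rows), from all 7 libraries and with each saline library left out. Without saline replicate 3 the values run from 1.12 (Best1) to 3.18 (Kcnj13), above the values from all libraries for every gene. Without saline replicate 1, and without saline replicate 2, they lie below the values from all libraries for every gene.

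With edgeR at its main settings, saline replicate 3 was the single library whose removal changed the calls, while other tools and filters made calls with it included, as given above. Without it, edgeR called 7 of the 8 genes, all but Best1, and 0.587% of 17553 tested genes in that direction. The log2 fold changes were then 3.18 for Kcnj13, 3.11 for Sult1c1, 3.01 for Ttr, 2.77 for Slc16a8, 2.60 for Flvcr2, 1.22 for Slc4a5 and 1.22 for Slc16a9. The plot of fold changes with each saline library left out shows this for every gene. Without saline replicate 2 the fold change was below that from all libraries for every gene, such as 1.75 for Kcnj13, 1.27 for Ttr and 0.21 for Best1. Without saline replicate 1 it was also lower for every gene. Over the alternatives run, the edgeR, DESeq2 or limma adjusted p of Ttr lay between 0.000210 and 1.0. No label sets saline replicate 3 apart from the other saline libraries. Saline replicate 2, which the first principal component set apart, had reads in 21260 genes, beside 24183 in saline replicate 1 and 24039 in saline replicate 3. The fit without saline replicate 3 keeps saline replicate 2, with only saline replicate 1 beside it.

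Other markers of the pigment epithelium were also higher by mean in Ang II. The 9 genes of a list of its enzymes and structure (Rpe65, Rdh5, Lrat, Rrh, Stra6, Ermn, Krt8, Krt18 and Cldn19) summed to 391.3 to 663.1 CPM in Ang II and 129.1 to 341.4 CPM in saline, none of them at 0 in all libraries and Cldn19 under 1 CPM on average. Rpe65, the isomerase of the visual cycle, was at 151.9, 147.1, 204.4 and 107.1 CPM in Ang II, against 19.8, 25.9 and 91.98 CPM in saline, so saline replicate 3 was again the highest saline library. In bulk tissue, fewer cells of a type and less RNA per cell cannot be told apart. The part of pigment epithelium content in the differences of the 8 genes was not tested. The 8 melanin and melanosome genes summed to 36.5 to 90.5 CPM in Ang II and 15.8 to 48.8 CPM in saline, with overlap. Rod markers lay the other way, as given above, and their part was not tested either. Müller glia markers, 6 genes, summed to 2684 to 3541 CPM in Ang II and 3039 to 3572 CPM in saline. Markers of choroid and sclera, 7 genes, summed to 23.6 to 32.8 CPM in Ang II and 19.6 to 26.3 CPM in saline.

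Relative to that list, the 8 genes differed among themselves. As a share of the summed CPM of the 9 markers, Ttr was at 105%, 109%, 96.7% and 96.0% in Ang II, against 40.8%, 54.7% and 107% in saline. Slc4a5 lay the other way, at 16.9%, 19.4%, 14.3% and 17.7% in Ang II, against 29.7%, 24.5% and 17.2% in saline. Krt18, a keratin gene that is one of the 9, hardly differed among libraries (49.97 to 64.5 CPM in Ang II and 48.0 to 60.8 CPM in saline) and so took a larger part of the sum in saline replicates 1 and 2. Shares of Rpe65 alone, chosen after the values were seen, avoid this. Rpe65 had a log2 fold change of 1.73 ± 0.64 (SE), Ang II over saline, and r of 0.981 with the mean log2 CPM of the 8. Shares of Rpe65 therefore partly restate the fold changes of the 8 genes, and carry no test.

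Against Rpe65, Slc16a8 and Ttr kept nearly the same level in all 7 libraries. Slc16a8 was at 30.3%, 30.5%, 32.8% and 40.2% of Rpe65 CPM in Ang II, against 35.7%, 29.8% and 39.6% in saline. Ttr was at 329%, 352%, 314% and 351% of Rpe65 CPM in Ang II, against 285%, 273% and 396% in saline. The SD of the log2 ratio to Rpe65 over the 7 libraries was 0.18 for Slc16a8 and 0.19 for Ttr, beside 1.32 and 1.44 for their log2 levels.

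Slc4a5, Slc16a9 and Best1 kept to Rpe65 least. Slc4a5 was at 52.9%, 62.7%, 46.3% and 64.6% of Rpe65 CPM in Ang II, against 207%, 122% and 64.0% in saline replicates 1 to 3. Slc16a9 was at 6.12% to 8.43% in Ang II, against 25.7%, 17.3% and 10.5% in saline. Both were relatively highest in saline replicates 1 and 2, where Rpe65 was lowest, and their own levels spanned 2.99-fold and 2.79-fold over the libraries, beside 11.4-fold for Ttr. Best1 was at 0.371% to 0.933% of Rpe65 in Ang II and 1.20% to 2.51% in saline, on few counts. The log2 ratio to Rpe65, Ang II minus saline, was -1.07 for Slc4a5, -1.18 for Slc16a9 and -1.42 for Best1, and between -0.07 (Slc16a8) and 0.48 (Kcnj13) for the other 5 genes. Of those 5, Kcnj13 also varied between libraries, at 1.36% to 4.07% of Rpe65, as did Sult1c1 (4.88% to 11.3%) and Flvcr2 (6.22% to 11.9%). The SD of their log2 ratio over the 7 libraries was 0.59, 0.46 and 0.38.

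**Figure D3:**
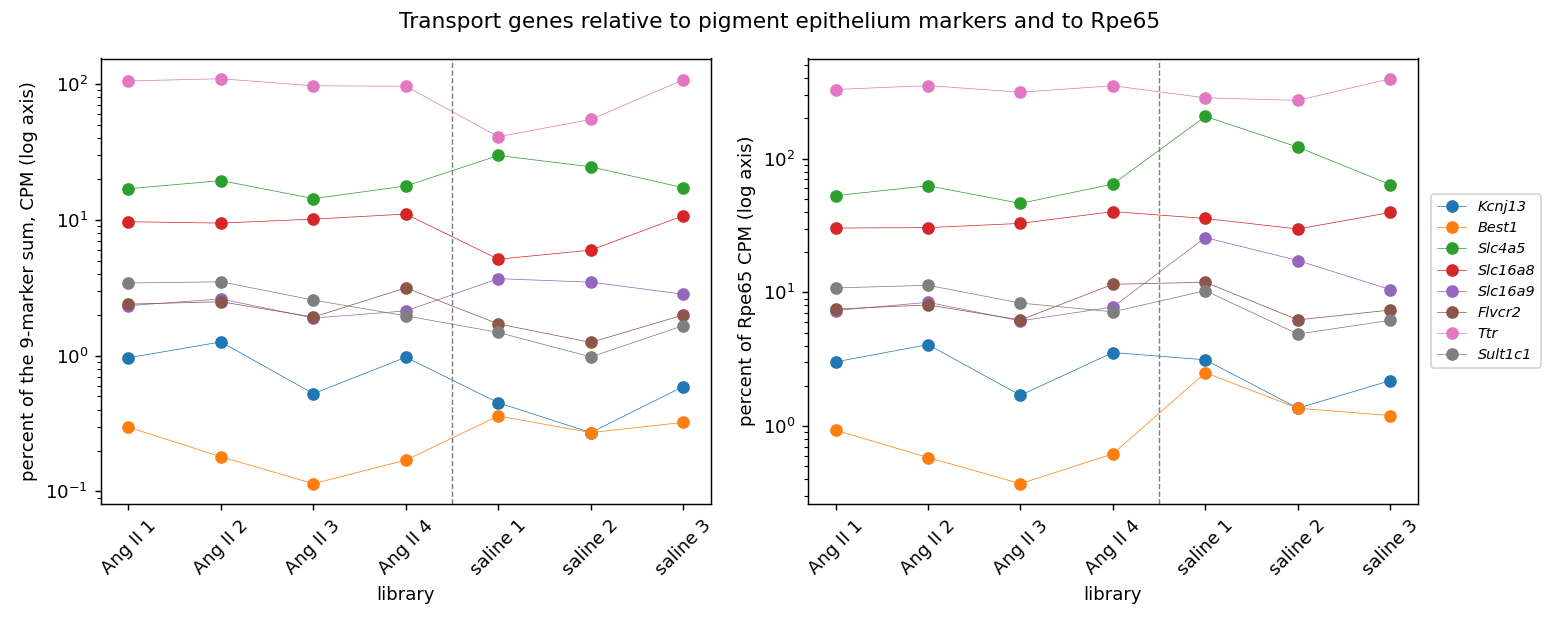
CPM of each of the 8 genes in each library (horizontal axis, Ang II left of the dashed line) as a percent of the summed CPM of 9 pigment epithelium markers (left panel) and of Rpe65 CPM (right panel), on log axes; faint lines only join points of 1 gene. In the right panel Ttr and Slc16a8 are nearly level across all 7 libraries, while Slc4a5 and Slc16a9 are highest in saline replicates 1 and 2.

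Most genes of 5 related lists lay close to 0 on the log2 scale. Beside transporters the lists hold enzymes and receptors, such as Hmox1, Sulf1 and Thra. In bulk retina, the cells that their reads came from are not known. Their median therefore does not describe pigment epithelium transport alone. Of 72 further genes in 5 lists, 67 were tested, 43 lay above 0 and 24 below, and the median log2 fold change was 0.06. edgeR called 0 of them in either direction, with 15 higher and 1 lower at an unadjusted p under 0.05 (2.90% and 1.72% of all tested genes), DESeq2 called 2 (Slc22a8 and Slc39a12, beside 0.182% of all genes it tested), and the groups did not overlap, higher in Ang II, for 12 (3.18%). Without saline replicate 3 edgeR called 6 (0.587%), among them Car12, Slc6a13, Slc22a8, Slc39a12 and Stra6. The lists were chosen with earlier results of these data known. Of 64 genes with a mean of at least 1 CPM, 8 (12.5%) had r over 0.9 with the mean of the 8 members, beside 1.28% of other genes. These 8 included Car12, Slc6a13, Slc22a8, Slc6a20a, Slc39a12, Slc13a3 and Stra6, named here after their values were seen.

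Among 24 other genes of ion and water transport, 22 were tested and the median log2 fold change was 0.08. Among those with the smallest p, Trpm3, a cation channel gene, had 137.7 ± 18.7 CPM in Ang II and 106.1 ± 8.99 CPM in saline. Clcn2, a chloride channel gene, was at 31.9 ± 6.10 CPM in Ang II and 23.1 ± 3.87 CPM in saline. Aqp1, the water channel gene, lay the other way, at 153.9 ± 23.4 CPM in Ang II and 207.4 ± 26.8 CPM in saline (log2 fold change -0.43 ± 0.12, SE).

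In the list of monocarboxylate and metabolite transport all 18 genes were tested, 14 above 0, with a median of 0.15. The zinc transporter gene Slc39a12 and the organic anion transporter gene Slc22a8 had the smallest p, with log2 fold changes of 1.68 ± 0.29 and 1.27 ± 0.22 (SE). Slc13a3, a dicarboxylate transporter gene, was at 8.65 ± 4.74 CPM in Ang II and 3.02 ± 1.86 CPM in saline. Bsg, the chaperone of MCT1 and MCT3, had a log2 fold change of 0.06 ± 0.09 (SE) and Emb, another such chaperone, one of 0.03 ± 0.13. Slc2a1, the main glucose transporter gene, was at 260.2 ± 20.8 CPM in Ang II and 260.8 ± 20.2 CPM in saline.

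Of the genes that work with Ttr, 8 of 9 were tested. Stra6, the cell surface receptor for retinol bound to its plasma carrier, was at 66.0 ± 19.8 CPM (SD) over the 4 Ang II libraries and 24.6 ± 19.5 CPM over the 3 saline libraries. Rbp4, the plasma retinol carrier that transthyretin binds, was at 0.682 ± 0.213 CPM in Ang II and 0.705 ± 0.0876 CPM in saline. The thyroid hormone transporter gene Slco1c1 had a log2 fold change of 0.41 ± 0.18 (SE). The median of the list was 0.07.

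Genes of haem and choline handling (11 tested, median 0.05) and of sulfation (8 tested of 10, median 0.00) had 0 genes at an unadjusted p under 0.05 with edgeR. Flvcr1, the paralog of Flvcr2, was at 25.7 ± 1.39 CPM (SD) over the 4 Ang II libraries and 22.5 ± 1.55 CPM over the 3 saline libraries. Papss2, which makes the sulfate donor that Sult1c1 uses, was at 5.40 ± 0.650 CPM in Ang II and 3.999 ± 1.07 CPM in saline.

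**Figure D4:**
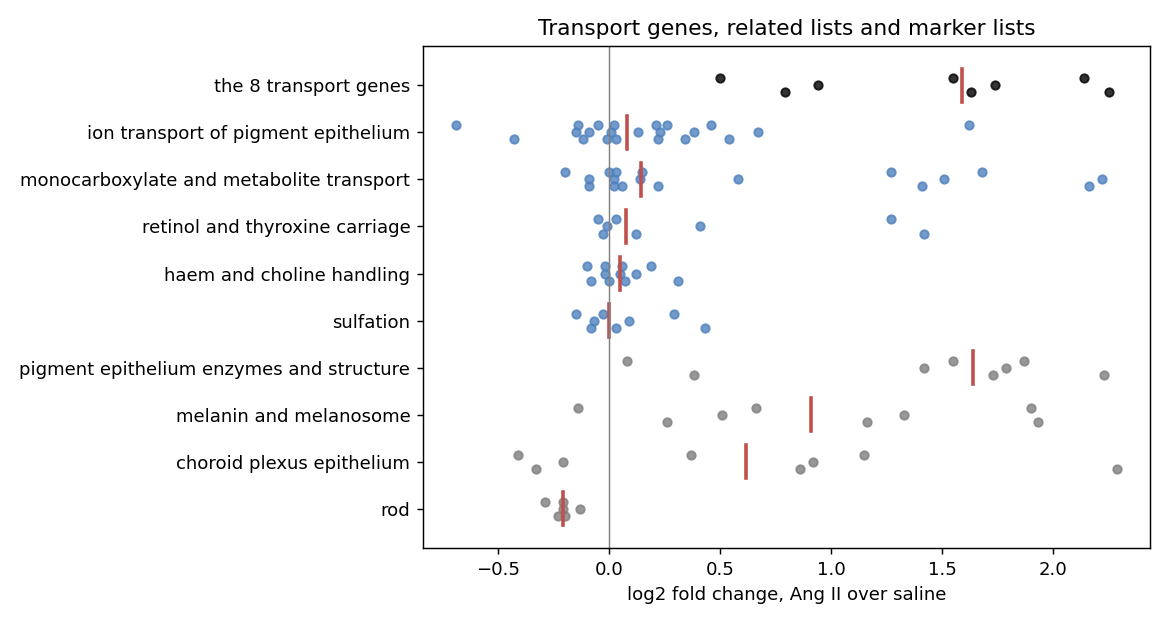
Log2 fold change, Ang II over saline (horizontal axis), of each tested gene in the 8 transport genes, 5 related lists and 4 marker lists (rows), with the median as a red bar. The medians of the 8 transport genes (1.59) and of the pigment epithelium markers (1.64) lie far right of those of the related lists, which are between 0.00 and 0.15.

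Within their families the 8 genes held different places. Of 14 Slc16 genes, Slc16a8 held rank 3 per length over all libraries and Slc16a9 rank 7, behind Slc16a1, which encodes MCT1, at 63.5 ± 9.11 CPM per kilobase in Ang II (SD) and 62.8 ± 6.66 in saline. Slc16a12 had a log2 fold change of 2.22 ± 0.61 (SE) on 100 counts in all, and Slc16a13 one of 0.58 ± 0.26, while Slc16a3 had -0.20 ± 0.25. By mean level per length, Slc4a5 held rank 4 of 10 Slc4 genes in Ang II and rank 5 in saline. It was behind Slc4a10, Slc4a3 and Slc4a7 in both groups and behind Slc4a8 in saline but not in Ang II, and these 4 had log2 fold changes between -0.14 and 0.12. Kcnj13 held rank 6 of 15 Kcnj genes in Ang II and rank 11 in saline, and Kcnj10, the Müller glia channel gene, had a log2 fold change of -0.20 ± 0.13 (SE). Of 6 Sult1 genes, Sult1c1 and Sult1a1 (log2 fold change 0.09 ± 0.18, SE) had counts, and the other 4 had 0 in all 7 libraries, a count that in saline replicate 2, the least deep, leaves room for 0.210 CPM (3 counts). Best1 was above Best2 in 6 of 7 libraries, all but Ang II replicate 2, where Best2 had 91 of its 116 counts. Best1 was below Best3, which was at 2.04 ± 0.209 CPM per kilobase in Ang II and 1.85 ± 0.347 in saline.

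**Figure D5:**
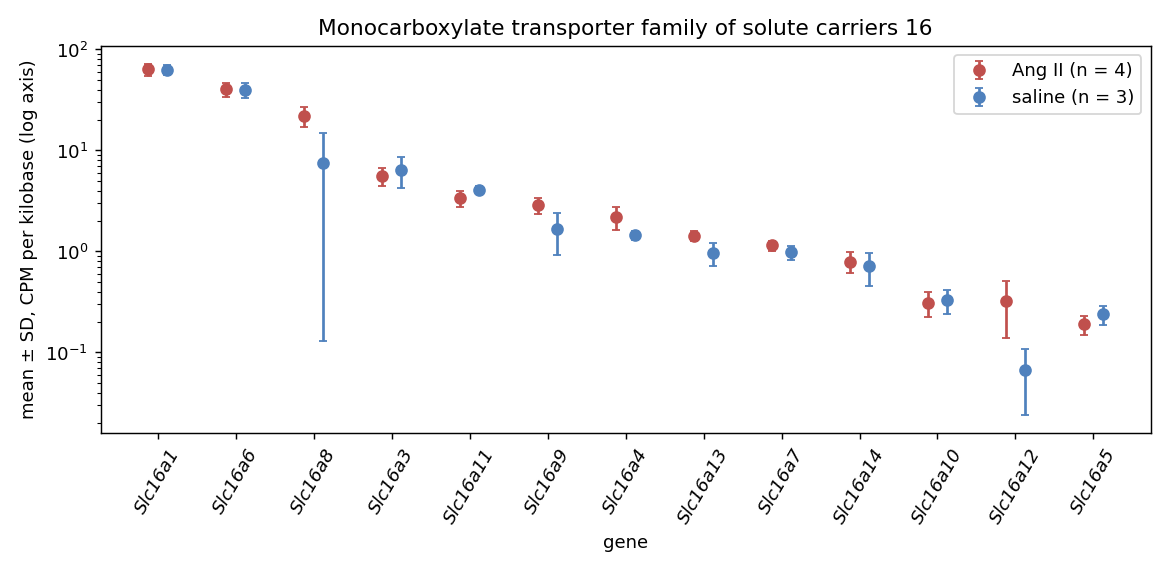
Mean ± SD in CPM per kilobase (vertical log axis) of 13 Slc16 genes (horizontal axis) in Ang II (n = 4) and saline (n = 3). Slc16a8 stands at 22.1 in Ang II and 7.5 in saline, while Slc16a1 stands at 63.5 in Ang II and 62.8 in saline.

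Several genes of the choroid plexus list, whose epithelium shares Ttr, Kcnj13 and Slc4a5, were higher by mean in Ang II, and others were not. The 8 genes summed to 269.0 to 379.3 CPM in Ang II and 146.4 to 256.6 CPM in saline. Enpp2, the autotaxin gene, was at 193.4 ± 38.5 CPM (SD) over the 4 Ang II libraries and 102.3 ± 46.4 CPM over the 3 saline libraries, whereas Kcne2 was at 35.7 ± 6.40 CPM in Ang II and 41.3 ± 2.27 CPM in saline. Folr1 was at 7.27 ± 1.71 CPM in Ang II and 5.61 ± 2.19 CPM in saline. Of the 8, Cldn2, Enpp2 and Clic6 had r over 0.9 with the mean of the transport genes, beside 1.28% of other genes with a mean of at least 1 CPM. Their part in the differences was not tested.

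Outside the 8, the genes whose log2 CPM ran most closely with their mean over the 7 libraries included Ccbe1 (r = 0.995), Gsx2 (0.993), Col8a1 (0.992), Fap (0.991) and Lrat (0.991). In saline replicates 1 and 2 few reads were behind Ccbe1 (0.248 and 0.140 CPM) and Gsx2 (0.186 and 0.0701 CPM). There 3 counts are 0.186 and 0.210 CPM. Lrat, which esterifies retinol in the pigment epithelium, was at 87.1, 85.7, 114.8 and 79.4 CPM in Ang II, against 10.1, 8.27 and 60.6 CPM in saline. Saline replicate 3 was again the highest saline library.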

How the data were processed

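Retina RNA was poly-A selected, primed with random hexamers and made into libraries without a step that marks strand, per the labels' protocols. Values in the deposited table are raw counts for each gene, as whole numbers, beside the authors' gene length in bases. CASAVA, HISAT2 2.0.5, featureCounts 1.5.0-p3 and build mm10 are named per the submitters' processing notes. The annotation release, strand setting and treatment of reads with several matches are not given in the sources used here. Of 54532 gene IDs, 54495 were in GENCODE M21, with identical start and end for 98.3% of them. Columns were matched to samples by the descriptions, with 0 columns left unmatched.

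Counts of all 7 libraries were fitted with edgeR 4.0.16 (R 4.3.3; filterByExpr, TMM, robust quasi-likelihood test, two-sided, Benjamini-Hochberg over all tested genes, threshold 0.05). DESeq2 1.42.0 and limma 3.58.1 were run as alternatives. The SE of an edgeR log2 fold change was its size divided by the root of F. For log2 CPM the prior count was 2. On simulated counts for Ang II against saline (16761 genes), 67% of genes changed by a log2 fold of 1 and 94% of those changed by 2 were called, and 6.40% of 172 calls were false. Each simulated gene was drawn on its own, with no shift shared within a library, and changed genes had a mean of at least 1 CPM. In the real libraries the 8 genes varied together, so these percentages do not say what the fit could call in this contrast. Libraries differed by 9.95 to 25.2 chi-square per degree of freedom, so none was the same library sequenced again. Whether any of them came from the same animal cannot be told this way. The 8 genes and all lists were chosen with earlier results of these data known. Named genes are the 8 and the 4 of smallest p in each related list (mean of at least 1 CPM). The most abundant markers, family members and the 6 closest in pattern are named too. Others were named after their values were seen. Some genes that this rule names are not reported here.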

Additional observations from a re-analysis of the deposited data

Results flagged for a closer look

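In 2 of the 8 genes 1 Ang II library stood far from the other 3, relative to their whole range. Slc16a8 was at 67.1 CPM in Ang II replicate 3, against 43.1 to 46.1 CPM in the other Ang II libraries, and Sult1c1 was at 7.66 CPM in Ang II replicate 4, against 16.3 to 17.01 CPM in the other Ang II libraries. Among the marker sums, lens genes were at 2240 CPM in Ang II replicate 2 (1.45 to 377 CPM in the other Ang II libraries) and skeletal muscle genes at 198 CPM in Ang II replicate 3 (3.60 to 11.1 CPM). In all, 18 groups of 4 Ang II values were examined, and chance marks about 1 in 20.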

How the results depend on the processing

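Over 15 alternative fits none of the 8 genes changed direction. The number of genes called, 0 with edgeR on all libraries, was 35 with DESeq2, 114 with limma-voom and quality weights, 98 without a filter on low counts, and 0 to 117 when each library was left out. In the same order, 3, 5, 4 and 0 to 7 of the 8 transport genes were called, all higher in Ang II. Of all tested genes, 0.182%, 0.574%, 0.284% and up to 0.587% were called in that direction. Of the further genes of the 5 related lists 2, 3, 5 and 0 to 6 were called. The highest values are those without saline replicate 3, and leaving out any other single library called none of these. Plain limma-voom, both other scalings and leaving out Ang II replicate 3 with saline replicate 2 also called 0. With the replicate block 56 genes were called, 1 of them among the 8 (Slc4a5) and 4 among the further genes; same-numbered libraries deviated with correlations of -0.069, -0.021 and 0.046, so the numbers are not taken as pairs. The median log2 ratio of the 8 genes to the 9 markers, 0.57 (Ang II minus saline), was 0.87 against melanin genes, 0.37 to 0.80 with a library left out (lowest without saline replicate 1, highest without saline replicate 3) and, with denominators chosen after seeing the data, 0.16 without Krt18 and -0.04 against Rpe65 alone. The median r between the 8 genes was 0.86 for deviations from the group means, which rest mostly on saline replicate 3 against the other saline libraries. Apart from the left-out library and the denominators themselves, the cause was not tested. Depth limits Best1 (5 to 25 counts) and Kcnj13 in saline (5 to 33 counts).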

Other observations

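Melanin genes differed among themselves. In bulk tissue, the cells that their reads came from are not known. Tyr, the tyrosinase gene, was at 10.6 ± 2.98 CPM (SD) over the 4 Ang II libraries and 2.80 ± 1.66 CPM over the 3 saline libraries, and Dct, which acts later in melanin synthesis, at 28.1 ± 12.6 CPM in Ang II and 12.5 ± 7.43 CPM in saline. Tyrp1 was at 9.43 ± 4.53 CPM in Ang II and 6.61 ± 2.85 CPM in saline. The groups overlapped for Dct and Tyrp1 but not for Tyr. Pmel and Mlana had log2 fold changes of 0.26 ± 0.81 and -0.14 ± 0.73 (SE), Ang II over saline. Of the 7 melanin genes with a mean of at least 1 CPM, 2 (Oca2 and Tyr) had r over 0.9 with the mean of the 8 transport genes. The same held for 7 of 8 genes of the enzyme and structure list and 1.28% of other genes at that level. With edgeR 0 melanin genes were called, and 3 of 8 had an unadjusted p under 0.05, beside 2.90% of all tested genes in that direction. DESeq2 called 1 of them (Tyr), beside 0.182% of all genes it tested in that direction. Without saline replicate 3, edgeR called 2 (Tyr and Oca2), beside 0.587%.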
